A study of Mus musculus with 36 samples.

Results

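The effect of Braf loss on hippocampal transcripts was set against the effect of the Cre transgene that the mutants carry, probe by probe, by subtracting the change in CamkII-Cre mice from that in Braf-cko mice. All 36 of the 36 arrays entered, and they stood for 23 male mice in 4 groups. The 5 Braf-cko mice carried 2 Braf-flox alleles and 1 copy of the CamkII-Cre transgene (homozygous and heterozygous), and their 6 Braf-flox littermates were homozygous for the same allele without Cre, all at 4 months on a mixed background of 93.7% C57BL/6J, 6.2% FVB and 0.1% 129/Sv. The 6 CamkII-Cre mice were heterozygous for the transgene with an intact Braf gene, and the 6 CamkII-wt mice were their littermates without it, all at 6 months on C57BL/6J. RNA of the complete hippocampus was hybridized to Illumina MouseWG-6 BeadChips, which read most transcripts with short probes and report a brightness, given here on the log2 scale. Every mouse of the Cre experiment had 2 arrays, which were averaged, while in the Braf experiment 1 Braf-cko mouse had 2 and the others 1 each.

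Growth factors and synaptic input reach ERK by a relay of kinases, in which B-RAF, the product of Braf, stands between RAS above it and MEK below. Active ERK enters the nucleus, where it acts on ETS factors and on CREB and raises immediate early genes such as Egr1, as well as phosphatases that switch ERK off again. The CamkIIa promoter drives Cre in principal forebrain neurons, so that the other cells of the hippocampus keep Braf. Cre itself, the site at which a transgene has inserted and alleles inherited beside it can each alter expression in a Cre-carrying mouse, and the Cre experiment measures these together.

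Each change was taken within its own experiment, between littermates. Arrays of the Braf experiment had medians of 51.8 to 53.3 intensity units and those of the Cre experiment 64.98 to 70.2, so that the values appear to have been normalized separately and levels are not compared between experiments. Age, genetic background, the normalization and the number of arrays per mouse all differ between the experiments, and they cannot be told apart from the Braf allele as the source of a difference. The median standard deviation of a probe within a group was 0.13 log2 units in Braf-cko, 0.14 in Braf-flox and 0.12 in each group of the Cre experiment. The array's single Braf probe was too dim to be tested with the others. It read 5.37 to 5.66 in Braf-cko mice and 5.45 to 5.76 in Braf-flox mice (difference of means -0.04, exact permutation test, two-sided, p = 0.645), and the files do not place it relative to the deleted part, so it checks nothing about the genotypes.

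The samples held the markers of a hippocampus in all 4 groups. In the 8 marker lists given here no marker was called in any contrast of the limma fit. Tested were 11 of astrocytes, 11 of oligodendrocytes, 11 of endothelial and mural cells and 8 of CA3 pyramidal cells. So were 8 of microglia, 7 of the choroid plexus, 7 of the thalamus and habenula and 2 of red cells. The interneuron list, also without a call, is described further below. Few or no calls are usual for so few genes. Among all 11538 genes at their brightest probe, 145 were lower and 64 higher in Braf-cko mice. For the difference 24 were lower and 6 higher, and 2 were called in CamkII-Cre mice. At an unadjusted p under 0.05 for the difference, 2 astrocyte and 2 endothelial markers passed and none in the rest of these 8 lists, beside 800 of all genes. The median difference was -0.22 for choroid plexus markers, of which 5 of 7 were negative and the lowest was -1.85, and -0.18 for endothelial markers, all 11 negative. It was -0.18 for oligodendrocyte and -0.12 for astrocyte markers, each with 10 of 11 negative, and the Cre changes of the oligodendrocyte markers all lay above 0, from 0.05 to 0.30. The log2 of the mean marker intensity of the choroid plexus, which borders the hippocampus, ran from 6.26 to 8.21 in Braf-cko and from 6.03 to 11.27 in Braf-flox mice, and from 7.51 to 12.01 and 6.55 to 12.33 in CamkII-Cre and CamkII-wt mice. Its part in the results was not tested.

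Among the genes whose change in Braf-cko mice was lower than that in CamkII-Cre mice were the neuropeptide genes Npy, Sst and Cck, the ERK phosphatases Dusp6 and Dusp4 and the immediate early genes Egr1 and Egr4, with Cre changes between -0.02 and 0.16 at the called probes. Of 23316 tested probes, the brighter 50% on the array, 34 had a lower change in the Braf experiment than in the Cre experiment (0.146%) and 9 a higher one (0.0386%), by limma's moderated test of the difference with Benjamini-Hochberg adjustment. They stood for 27 genes that were lower, 7 that were higher and 7 probes without a gene name. At an unadjusted p under 0.05, 1554 probes (6.66%) passed. In Braf-cko mice alone, 215 probes were lower (0.922%) and 118 were higher (0.506%) than in Braf-flox littermates in the same fit of all 23 mice, and in CamkII-Cre mice 4 probes were lower and none higher than in littermates (0.0172%, with 255 probes past an unadjusted p under 0.05). Fitted alone, the Braf experiment gave 126 probes in place of 333, an alternative chosen after seeing the data.

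The 333 probes that changed in Braf-cko mice fell into 3 groups. At 42 of them, 33 lower and 9 higher, the change also differed from that in CamkII-Cre mice. There the Cre change ran from -0.15 to 0.20 with a median of 0.01, and its 95% interval lay within 0.5 log2 units of 0 at 41 of the 42. The same held at 22474 of the 22982 probes called in no test, so that it does not set the 42 apart. At 4 probes the change was found in both Cre-carrying groups. At the other 287 a difference from the Cre change was not shown, although the interval of the Cre change lay within 0.5 log2 units of 0 at 280 of these too. Their changes in Braf-cko mice were smaller, with a median size of 0.42 against 0.70 at the 42. The median standard error of the difference was alike, at 0.12 against 0.13, so that the smaller size follows from the split by the test. A single probe, which carries no gene name (ILMN_1214135), differed between the experiments without a called change in either, at -0.23 in Braf-cko and 0.28 in CamkII-Cre mice (adjusted p of the difference 0.0436).

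**Figure D1:**
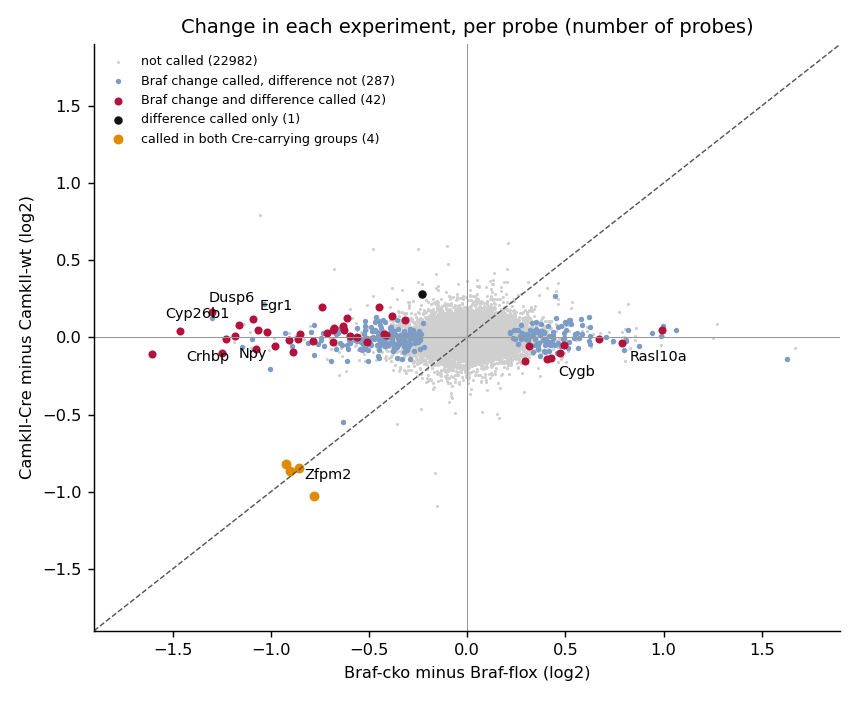
Log2 change between CamkII-Cre and CamkII-wt mice (vertical axis) against that between Braf-cko and Braf-flox mice (horizontal axis) for each of the 23316 tested probes, coloured by which tests it passed, with the dashed line marking equal changes. The 42 probes with a called Braf change and a called difference lie along the horizontal axis, and the 4 probes called in both groups lie near the dashed line at about -0.8 to -1.0 on both axes.

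Npy, Sst, Crhbp, Cck and Scg5, all part of the neuropeptide system, were lower in Braf-cko mice, and for each the change differed from that in CamkII-Cre mice. Among 23 tested neuropeptide genes and genes of their secretory granules, 5 were lower for the difference and none higher, beside 24 lower and 6 higher among all 11538 genes at their brightest probe, and 12 passed an unadjusted p under 0.05. In Braf-cko mice 9 of the 23 were lower and 1 was higher, beside 145 lower and 64 higher among all genes. In CamkII-Cre mice none was called, beside 2 of all genes. The median difference over the list was -0.22, against -0.003 over all genes, and the median Cre change was -0.01.

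Neuropeptide Y (Npy), a peptide of hippocampal interneurons, read 9.88, 10.15, 9.99, 9.76 and 9.86 in the 5 Braf-cko mice, against a lowest value of 10.91, a median of 11.14 and a highest of 11.20 in the 6 Braf-flox mice. In the Cre experiment it ran from 11.18 over a median of 11.46 to 11.77 in CamkII-Cre mice and from 11.20 over 11.41 to 11.71 in CamkII-wt mice. Every Braf-cko mouse lay below every Braf-flox mouse, while the Cre groups overlapped over most of their range. The change was -1.18 in Braf-cko mice, to 44.1% of the control level, and 0.01 in CamkII-Cre mice (95% interval -0.19 to 0.20), and the 2 differed by -1.19 (standard error 0.14, adjusted p = 0.000171 from limma).

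Somatostatin (Sst), a second peptide of interneurons, read 11.72, 11.43, 11.19, 11.01 and 11.14 in Braf-cko mice and 12.02, 12.13 and 12.35 as lowest, median and highest value in Braf-flox mice. In CamkII-Cre mice the same values were 12.29, 12.45 and 12.72, and in CamkII-wt mice 12.41, 12.43 and 12.58. The Braf groups did not overlap and the Cre groups did. The difference was -0.87 (standard error 0.13, adjusted p = 0.00217 from limma), made up of -0.85 in Braf-cko and 0.02 in CamkII-Cre mice.

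Crhbp, which encodes the protein that binds and holds back corticotropin-releasing hormone, read 9.36, 9.15, 9.31, 8.67 and 9.42 in Braf-cko mice, below the 10.01 to 10.86 of Braf-flox mice (median 10.40). CamkII-Cre mice ran from 10.80 to 11.12 (median 10.98), inside the 10.68 to 11.34 of CamkII-wt mice (median 11.01). It was at 42.6% of the control level in Braf-cko and 99.1% in CamkII-Cre mice. On the log2 scale the difference came to -1.22 (standard error 0.19, adjusted p = 0.00293 from limma).

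Cholecystokinin (Cck), a peptide of both interneurons and pyramidal cells, and Scg5, a chaperone of the enzyme that cuts peptide precursors, were the other 2 of the 5. Cck read 10.91, 10.93, 11.20, 10.95 and 11.15 in Braf-cko mice against 11.52 to 11.82 in Braf-flox mice (median 11.61), and the changes differed by -0.61 (standard error 0.12, adjusted p = 0.0164). Scg5 lay in a narrow band in Braf-cko mice, at 11.18, 11.20, 11.15, 11.15 and 11.13, against 11.55 to 12.42 in Braf-flox mice (median 12.21), and the changes differed by -0.93 (standard error 0.17, adjusted p = 0.0162). The Cre change was 0.01 for Cck and -0.05 for Scg5, and for both genes the Cre groups overlapped and the Braf groups did not.

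Other members of the list changed in Braf-cko mice without a shown difference from the Cre change. Cortistatin (Cort), a relative of somatostatin, had changes of -1.15 and -0.07 (adjusted p of the difference 0.136), and Vgf, a secreted peptide precursor, of -0.54 and -0.03 (adjusted p = 0.225). Substance P precursor Tac1 had changes of -0.66 and 0.05 (adjusted p = 0.38), and Cartpt was the member that rose, by 0.81 in Braf-cko mice against -0.01 (adjusted p = 0.445). In these bulk samples, fewer cells of a type and less RNA per cell cannot be told apart. Few calls are usual in a short list, with 145 genes lower and 64 higher in Braf-cko mice among all 11538 at their brightest probe. Of 14 interneuron markers outside the peptide list, 13 were tested and none was called for the difference, in Braf-cko or in CamkII-Cre mice. Their median difference was 0.01, and none passed an unadjusted p under 0.05 for the difference. Their summed level, taken as the log2 of the mean intensity, ran from 10.13 to 10.29 in Braf-cko and from 10.30 to 10.60 in Braf-flox mice, and from 10.71 to 10.95 and 10.68 to 11.07 in CamkII-Cre and CamkII-wt mice. The part of this shift in the peptide values was not tested.

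A core cAMP response element, the site that CREB binds, was found at the starts of 33.7% of tested genes with a sequence at hand. At the start of Npy it was not found. Whether the element has a part in the changes was not tested. The sequences at the starts of the 4 called peptide-list genes that hold the core are shown, picked for holding it. They are RefSeq promoter windows of the GRCm38.p6 build, 250 bases before to 50 after the annotated start, written 5′ to 3′ on the strand of the gene, with the letters TGACG, or CGTCA where it lies on the other strand, in capitals. The windows are chr16:23890795-23891094 for Sst, chr9:121495645-121495944 for Cck, chr13:95444782-95445081 for Crhbp and chr2:113829042-113829341 for Scg5, each on the minus strand.
Sst: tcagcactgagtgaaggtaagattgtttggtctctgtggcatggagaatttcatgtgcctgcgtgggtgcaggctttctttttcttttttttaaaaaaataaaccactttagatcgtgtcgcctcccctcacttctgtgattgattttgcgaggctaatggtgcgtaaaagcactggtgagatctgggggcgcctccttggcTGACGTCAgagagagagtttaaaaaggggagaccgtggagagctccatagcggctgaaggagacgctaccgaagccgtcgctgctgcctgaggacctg
Cck: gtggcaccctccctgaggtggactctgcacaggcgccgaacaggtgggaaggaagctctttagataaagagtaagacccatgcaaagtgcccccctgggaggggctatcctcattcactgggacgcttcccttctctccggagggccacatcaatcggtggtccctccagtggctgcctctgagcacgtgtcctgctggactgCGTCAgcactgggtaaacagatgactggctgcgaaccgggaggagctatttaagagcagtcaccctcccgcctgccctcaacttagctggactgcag
Crhbp: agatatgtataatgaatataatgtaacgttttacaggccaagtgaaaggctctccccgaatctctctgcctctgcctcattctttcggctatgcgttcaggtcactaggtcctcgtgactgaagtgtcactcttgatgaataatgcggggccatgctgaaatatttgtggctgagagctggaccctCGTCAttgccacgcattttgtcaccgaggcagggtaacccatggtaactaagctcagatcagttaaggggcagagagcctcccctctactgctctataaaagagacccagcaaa
Scg5: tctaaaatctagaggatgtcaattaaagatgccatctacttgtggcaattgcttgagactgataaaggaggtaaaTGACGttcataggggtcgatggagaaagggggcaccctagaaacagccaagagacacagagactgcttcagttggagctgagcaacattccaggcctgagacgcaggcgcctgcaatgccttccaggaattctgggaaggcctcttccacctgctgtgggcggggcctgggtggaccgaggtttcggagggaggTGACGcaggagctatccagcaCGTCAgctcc

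Of the 27 genes lower for the difference, 19 have a window. Egr1, Dusp4, Htr5b and Rasd1 are among those without one, so nothing is said of them here. In its own search of longer promoter regions, the paper reports conserved CREB sites for Sst, Egr1, Dusp4 and Egr4, among others. Among the 19 windows the full palindrome TGACGTCA was found in that of Sst alone. Its share was 2.03% among all 27025 genes with a window and 3.39% among those tested on the array. The core TGACG, which the palindrome contains on each strand, was found on either strand in 9 of the 19, against 23% of all genes and 33.7% of those tested. The 9 were Cck, Crhbp, Csrnp1, Egr4, Midn, Plpp6, Scg5, Sst and Zranb3. Of the 7 genes that were higher, 6 have a window and 1, Neurod2, holds the core. In the window of Npy, whose difference had the smallest p, neither motif was found. Counted from the start of the gene, with negative positions before it, the core began at -48 and -45 in Sst, at -47 in Cck, at -64 in Crhbp, and at -175, 20 and 41 in Scg5. A match is a description of the letters in these windows.

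Dusp6 and Dusp4, whose products switch ERK off, were called as well. Of 12 tested genes of the Dusp, Spry and Spred families, 1 was lower for the difference at its brightest probe, Dusp6, beside 24 of all 11538 genes. Dusp4 was lower at a dimmer probe. In Braf-cko mice 4 of the 12 were lower and none higher, beside 145 lower and 64 higher among all genes. In CamkII-Cre mice none was called, beside 2 of all genes. The median difference of the 12 was -0.33 beside a median Cre change of -0.01.

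Dusp6, a cytoplasmic phosphatase that ERK induces and that dephosphorylates ERK, read 7.43, 7.87, 7.42, 6.83 and 7.13 in Braf-cko mice against 8.26 to 9.11 in Braf-flox mice (median 8.55). In CamkII-Cre mice it ran from 9.25 to 9.51 (median 9.43) and in CamkII-wt mice from 9.09 to 9.36 (median 9.25). The Braf groups were apart, and the Cre groups overlapped with CamkII-Cre mice at the upper end. Its change was -1.30 in Braf-cko and 0.16 in CamkII-Cre mice (95% interval -0.13 to 0.46), so that the difference, at -1.46 (standard error 0.21, adjusted p = 0.000803 from limma), was larger than the Braf change. The second Dusp6 probe gave -1.06 and 0.05, with a difference of -1.11 (adjusted p = 0.00505).

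Dusp4, a nuclear phosphatase of ERK, read 7.08, 7.46, 7.10, 7.22 and 7.03 in Braf-cko mice at its dimmer probe, against 7.68 to 8.20 in Braf-flox mice, and the difference was -0.76 (standard error 0.13, adjusted p = 0.00462). At its brighter probe the estimate was of like size, at -0.84, with a larger standard error of 0.19, and did not pass (adjusted p = 0.0763). Dusp5, a further nuclear ERK phosphatase, was just outside the threshold at -0.96 (standard error 0.21, adjusted p = 0.0533), with changes of -0.93 in Braf-cko and 0.03 in CamkII-Cre mice. Spred1, an inhibitor that holds back Raf activation, had changes of -0.53 and -0.08 (adjusted p of the difference 0.429).

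**Figure D2:**
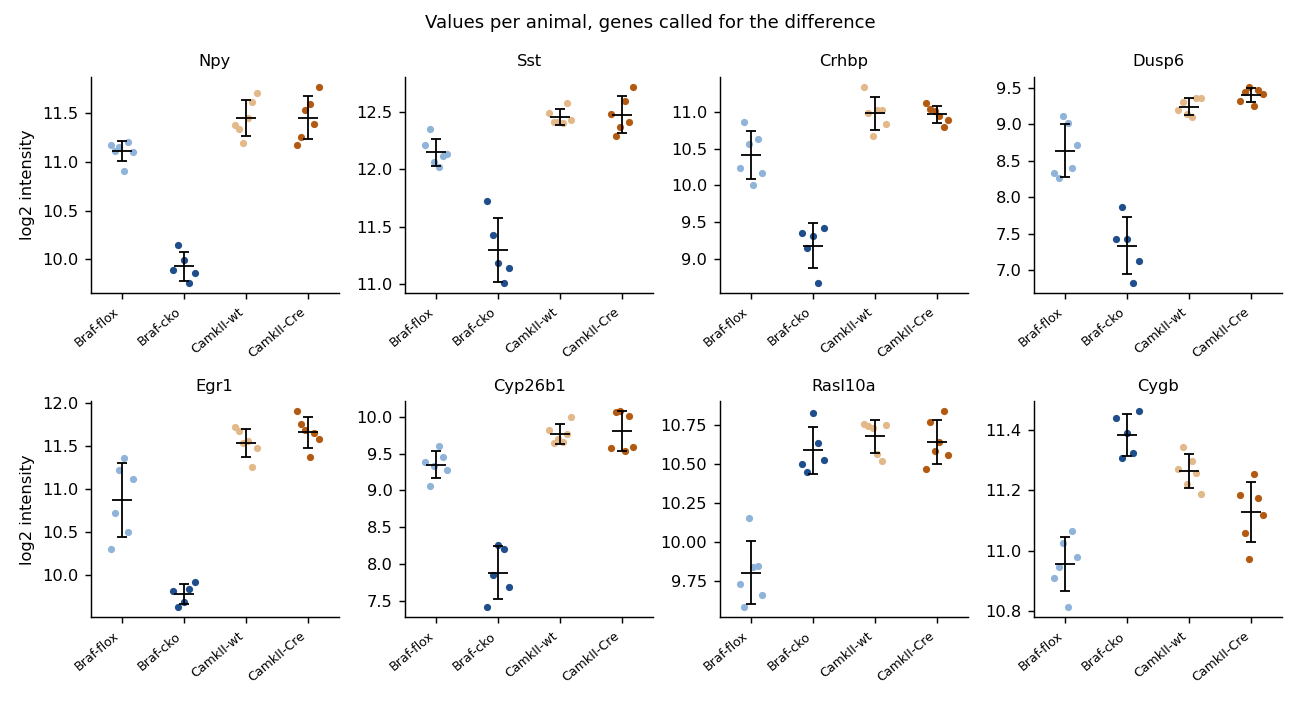
Log2 intensity of each mouse (points) in the 4 groups for 8 genes called for the difference, at their brightest tested probe, with the group mean and SD as black bars. Each panel has its own vertical axis, the Braf-cko points lie apart from the Braf-flox points in all 8 panels, and the points of the 2 groups of the Cre experiment overlap in all 8.

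A few transcription factors that answer ERK were called, and most members of their lists were not. Of 20 tested immediate early transcription factors, 3 were lower for the difference, Egr1, Egr4 and Csrnp1, and none was higher. In Braf-cko mice 5 were lower, and in CamkII-Cre mice none was called. Among all 11538 genes at their brightest probe, 24 were lower and 6 higher for the difference. There 145 were lower in Braf-cko mice and 2 were called in CamkII-Cre mice. Of 12 tested ETS factors, a family of which ERK acts on some members, 1 was lower for the difference, Etv5. The list's median difference was -0.01. The median difference of the immediate early factors was -0.21.

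Egr1, a zinc-finger factor used as a read-out of neuronal activity, read 9.81, 9.63, 9.69, 9.84 and 9.92 in Braf-cko mice and from 10.30 to 11.36 in Braf-flox mice (median 10.92). In the Cre experiment it ran from 11.37 to 11.90 in CamkII-Cre mice (median 11.67) and from 11.25 to 11.72 in CamkII-wt mice (median 11.55). The Braf-cko values lay close together below all controls, whose own spread was wider (SD 0.12 against 0.43). The difference was -1.21 (standard error 0.20, adjusted p = 0.00355 from limma), with -1.09 in Braf-cko and 0.12 in CamkII-Cre mice.

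Egr4, a relative of Egr1, read 7.95, 8.22, 7.73, 7.50 and 7.94 in Braf-cko mice against 8.59 to 9.71 in Braf-flox mice (difference -1.24, standard error 0.23, adjusted p = 0.0124). Etv5, an ETS factor of the PEA3 group that ERK induces, read 7.89, 7.96, 8.51, 7.88 and 8.11 against 8.80 to 9.23 (difference -0.80, standard error 0.14, adjusted p = 0.00866). Csrnp1, a nuclear factor of the early response, read 7.29, 7.09, 7.13, 7.48 and 7.47 against 7.67 to 8.17 (difference -0.66, standard error 0.13, adjusted p = 0.0206). For all 3 genes the Braf groups were apart, the Cre groups overlapped, and the Cre change lay between -0.09 and 0.08. Fos, the best known immediate early gene, had an estimate of -1.22, close to that of Egr1, but a standard error of 0.49, and did not pass (adjusted p = 0.599).

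Of 17 tested effector genes that neuronal activity induces, 2 were lower for the difference, Rasd1 and Midn, none was higher and 15 did not pass. In Braf-cko mice 5 were lower. Among all 11538 genes 24 were lower for the difference and 145 were lower in Braf-cko mice. The median difference of the 17 was -0.26. Rasd1, a small GTPase of the Ras family that glucocorticoids induce, read 6.23, 6.59, 6.23, 6.39 and 6.11 in Braf-cko mice against 7.14 to 7.77 in Braf-flox mice. The Braf groups did not overlap and its difference was -1.0 (standard error 0.18, adjusted p = 0.0108), with a Cre change of -0.07. Midn, which encodes midnolin, a protein that brings the products of immediate early genes to the proteasome, read 9.97, 9.78, 10.02, 9.61 and 9.73 against 10.33 to 10.78 and was lower by a difference of -0.74 (standard error 0.14, adjusted p = 0.0125), with changes of -0.71 and 0.03. Arc, an immediate early gene of the synapse, had changes of -1.10 and 0.04 with a standard error of the difference of 0.43 (adjusted p = 0.542), and Bdnf, a neurotrophin, of -0.50 and -0.03 (adjusted p = 0.543). Nptx2, a pentraxin that gathers glutamate receptors, changed by -1.0 in Braf-cko mice and had an estimate of -0.20 in CamkII-Cre mice (95% interval -0.51 to 0.10), and its difference did not pass (adjusted p = 0.206).

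The kinases of the cascade itself were not called. Of 18 tested genes of the Ras, Raf, MEK and ERK chain and its regulators, 1 was higher for the difference and none lower. Among all 11538 genes at their brightest probe 6 were higher and 24 lower. The median difference of the 18 was -0.10. The gene of the 18 that was higher was Rasl10a, a small GTPase related to Ras. It read 10.50, 10.45, 10.83, 10.64 and 10.52 in Braf-cko mice, above the 9.58 to 10.16 of Braf-flox mice (median 9.78), and from 10.47 to 10.84 and 10.52 to 10.76 in CamkII-Cre and CamkII-wt mice. It was at 173% of the control level in Braf-cko and 97.6% in CamkII-Cre mice, and on the log2 scale the changes differed by 0.82 (standard error 0.13, adjusted p = 0.0021 from limma). Shc3, a neuronal adaptor upstream of Ras, had changes of -0.56 and -0.03 (adjusted p of the difference 0.308).

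**Figure D3:**
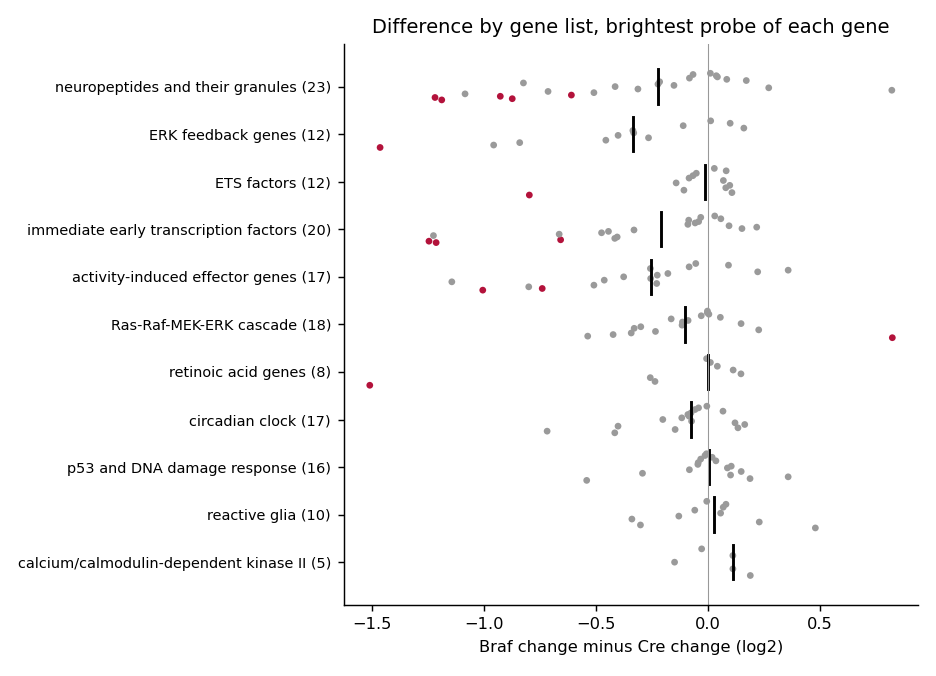
Difference between the Braf change and the Cre change (log2, horizontal axis) for the tested members of 11 gene lists at their brightest probe, with called genes in red, the list median as a black bar and the number of tested genes in brackets. Red points lie to the left in the neuropeptide, ERK feedback, ETS, immediate early, effector and retinoic acid lists, and the only red point on the right is Rasl10a.

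Among the called genes with a name, Cyp26b1 had the largest difference. Its product removes retinoic acid by oxidation. It read 7.42, 7.86, 8.27, 8.20 and 7.69 in Braf-cko mice against 9.06 to 9.61 in Braf-flox mice (median 9.36), and from 9.53 to 10.07 and 9.64 to 9.997 in CamkII-Cre and CamkII-wt mice. The Braf groups were far apart and the Cre groups overlapped. It was at 36.3% of the control level in Braf-cko and 103% in CamkII-Cre mice, and on the log2 scale the changes differed by -1.51 (standard error 0.19, adjusted p = 0.000273). It was the only one of 8 tested genes of retinoic acid metabolism and its receptors to be called. Among all 11538 genes 24 were lower and 6 higher for the difference. The median difference of the list was 0.003.

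Receptors, signaling proteins and enzymes outside the lists made up the rest of the lower genes. Htr5b, a serotonin receptor, read 6.20, 5.84, 6.90, 5.98 and 6.10 in Braf-cko mice against 7.16 to 7.70 in Braf-flox mice, and the changes differed by -1.15 (standard error 0.21, adjusted p = 0.0101) and a Cre change of -0.10. Ky, a gene known from muscle, read 6.66, 6.58, 6.77, 6.83 and 6.64 against 7.38 to 7.94, and the changes differed by -1.05 (standard error 0.15, adjusted p = 0.000803). Both probes of Igfbp4, which binds insulin-like growth factors, were called, with differences of -0.74 and -0.71 and Cre changes of 0.13 and 0.08. Efcab6, an EF-hand protein, had a difference of -0.85, Zranb3, a DNA translocase of replication forks, of -0.74, and Tnfrsf12a, the receptor of the cytokine TWEAK, of -0.73. Stac, an adaptor of calcium channels, had a difference of -0.67, Zyx, a protein of focal adhesions, of -0.57, Plpp6, a lipid phosphatase, of -0.48, and Pramel12 of -0.43. Across the genes of this paragraph the Cre change lay between -0.10 and 0.13, and in each of them the Braf groups did not overlap.

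At 31 of the 43 called probes the Cre change had the opposite sign to the Braf change, which made the difference larger. At a few genes the Cre change itself made up a visible part of the difference. Nfkbie, an inhibitor of NF-kappaB, had changes of -0.45 in Braf-cko and 0.20 in CamkII-Cre mice (95% interval 0.01 to 0.39), and its difference was -0.65 (adjusted p = 0.04). Hectd2, a ubiquitin ligase, had changes of -0.74 and 0.20 at a dimmer probe (difference -0.94, adjusted p = 0.0384; its brighter probe gave -0.52, adjusted p = 0.241), and Dlgap2, a scaffold of the postsynaptic density, of -0.38 and 0.14, also at a dimmer probe (difference -0.52, adjusted p = 0.0289), where its brighter one gave -0.33 (adjusted p = 0.687). In each of the 3 the Braf groups overlapped. The Cre change of none of these genes passed adjustment, and at 4 of the 43 called probes its unadjusted 95% interval left out 0. All 43 had overlapping Cre groups, and of all tested probes just 0.0772% had Cre groups that did not overlap. At 38 the Braf groups did not overlap, beside 1.72% of all tested probes. At all 43 every Braf-cko mouse lay on the side of the change relative to the Braf-flox mean. The 43 were picked by these same values, so the counts describe them and add no support.

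The 7 genes with a higher change in the Braf experiment were Rasl10a, Cygb, Cdca7l, Neurod2, Ctdspl2, Vstm2b and N4bp2. Cygb is a globin of the cytoplasm and was set in the list of dentate granule cell markers used here. It read 11.44, 11.31, 11.39, 11.32 and 11.46 in Braf-cko mice against 10.81 to 11.06 in Braf-flox mice. In CamkII-Cre mice it ran from 10.97 to 11.25 and in CamkII-wt mice from 11.19 to 11.34, so that the Cre groups overlapped with CamkII-Cre mice at the lower end. The change was 0.43 in Braf-cko and -0.14 in CamkII-Cre mice (95% interval -0.25 to -0.02), and the 2 differed by 0.56 (standard error 0.08, adjusted p = 0.000803).

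Neurod2, a factor of excitatory neurons, read 10.98, 10.89, 11.18, 11.19 and 10.93 against 10.38 to 10.75 (difference 0.57, standard error 0.12, adjusted p = 0.0289), with a Cre change of -0.10. Cdca7l, a nuclear protein, had changes of 0.41 and -0.14 (difference 0.54, adjusted p = 0.0112), Vstm2b, a membrane protein, of 0.30 and -0.15 (difference 0.45, adjusted p = 0.0339), and N4bp2 of 0.31 and -0.06 (difference 0.37, adjusted p = 0.0344). Ctdspl2, a phosphatase, had changes of 0.99 and 0.05 at a dimmer probe (difference 0.95, adjusted p = 0.0301), where Braf-cko mice read 6.99 to 7.21 and Braf-flox mice were spread from 5.68 to 6.72. At its brighter probe the difference was 0.32 (adjusted p = 0.564). Among markers of dentate granule cells, 7 were tested, 1 was higher for the difference (Cygb) and none lower. In Braf-cko mice 2 of the 7 were higher, Cygb and Smoc2 (0.56, with a difference of 0.63, adjusted p = 0.103), beside 64 of all 11538 genes. The median difference of the list was 0.01, and the summed levels overlapped between the groups in both experiments. Among 7 tested markers of CA1 pyramidal cells none was called for the difference, and the median difference was -0.27. In Braf-cko mice 1 of the 7 was lower (Fibcd1, -0.61), beside 145 of all 11538 genes. Their summed level was 9.88 to 10.41 in Braf-cko and 10.34 to 10.60 in Braf-flox mice, and 10.75 to 11.29 and 10.94 to 11.23 in CamkII-Cre and CamkII-wt mice. The part of this shift in the genes above was not tested.

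**Figure D4:**
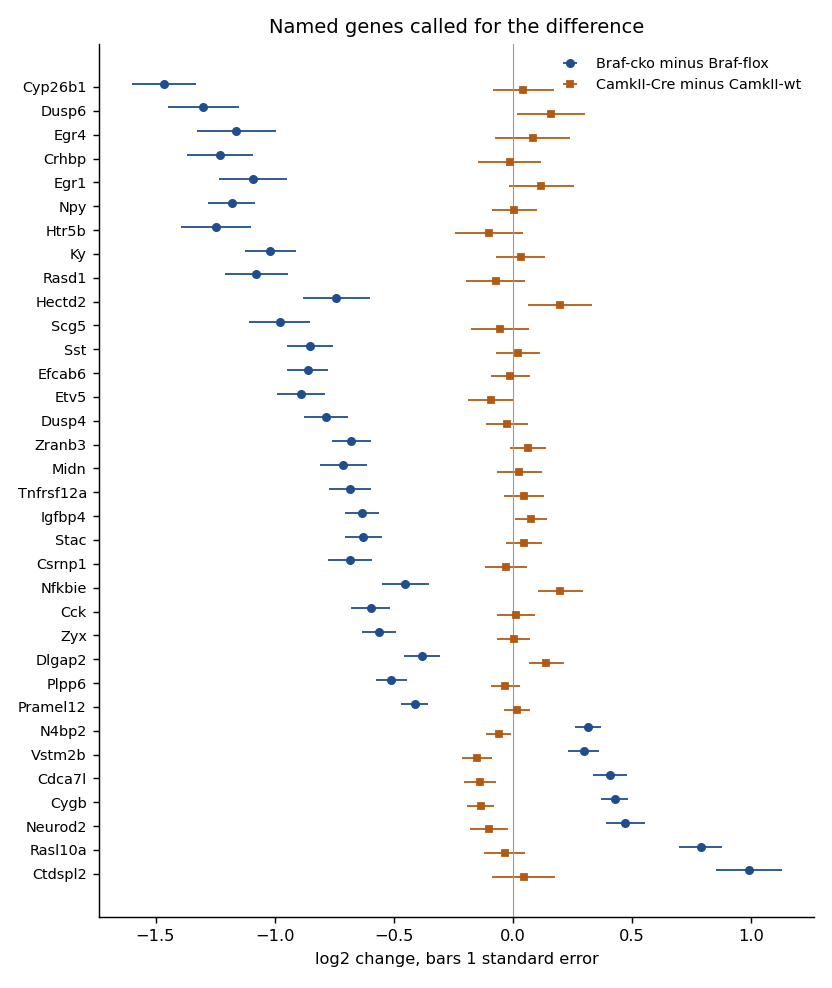
Log2 change in Braf-cko mice (blue circles) and in CamkII-Cre mice (orange squares), with bars of 1 standard error, for the 34 named genes called for the difference, each at its called probe with the smallest p, ordered by the difference. The blue points run from -1.46 for Cyp26b1 to 0.99 for Ctdspl2, while the orange points stay between -0.15 and 0.20.

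The change found in both Cre-carrying groups was confined, in this test, to Zfpm2, Oxr1 and a probe without a gene name. The paper likewise names Oxr1, Zfpm2 and a RIKEN cDNA as changed in CamkII-Cre mice, and it left them out of its later steps. Whether the probe without a gene name reads that cDNA was not tested. A probe counted here if it passed in the Braf and in the Cre contrast with the same sign, taking the larger of the 2 p-values and adjusting it over all probes, and 4 probes passed (0.0172%), all lower. These were also the 4 probes called in CamkII-Cre mice, so that every probe called for the transgene was called in Braf-cko mice too.

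Zfpm2, a cofactor of GATA factors, read 8.24, 8.69, 8.41, 8.52 and 7.92 in Braf-cko mice against 8.96 to 9.47 in Braf-flox mice (median 9.32). In CamkII-Cre mice it ran from 8.38 to 8.84 (median 8.68) and in CamkII-wt mice from 9.39 to 9.70 (median 9.48). Neither pair of groups overlapped, which held for 0.0772% of all tested probes in the Cre experiment. The changes were -0.90 in Braf-cko and -0.87 in CamkII-Cre mice, and their difference was -0.03 (standard error 0.16, adjusted p = 0.994).

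Oxr1, a gene of resistance to oxidative damage, has 3 tested probes. At the brightest (ILMN_2697390) it read 8.64, 8.75, 8.69, 8.36 and 8.55 in Braf-cko mice against 9.39 to 9.76 in Braf-flox mice, and 8.72 to 9.35 in CamkII-Cre against 9.55 to 10.11 in CamkII-wt mice. The changes were -0.92 and -0.82 (difference -0.11, standard error 0.16, adjusted p = 0.985). At ILMN_1230816 they were -0.78 and -1.03 (difference 0.25, adjusted p = 0.88), and here too both pairs of groups were apart. The third probe, ILMN_2639491, moved the same way by -0.63 and -0.55, but its Cre change did not pass (unadjusted p = 0.000342, adjusted p = 1) and its Cre groups overlapped, with CamkII-Cre replicate 1 at 7.34 among the controls.

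The probe without a gene name, ILMN_1233933, read 8.22, 8.21, 8.31, 8.0 and 8.10 in Braf-cko mice against 8.91 to 9.20 in Braf-flox mice, and 7.87 to 8.58 in CamkII-Cre against 8.47 to 9.17 in CamkII-wt mice. The Cre groups touched, because CamkII-wt replicate 6 lay at 8.47 while the other 5 began at 8.93. Its changes were -0.85 and -0.85. When each experiment was fitted alone, none of the 4 passed the test for both groups (limma, smallest adjusted p = 0.0602, with 30 probes at an unadjusted p under 0.05) and 2 probes passed in CamkII-Cre mice, Zfpm2 and ILMN_1230816 of Oxr1.

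**Figure D5:**
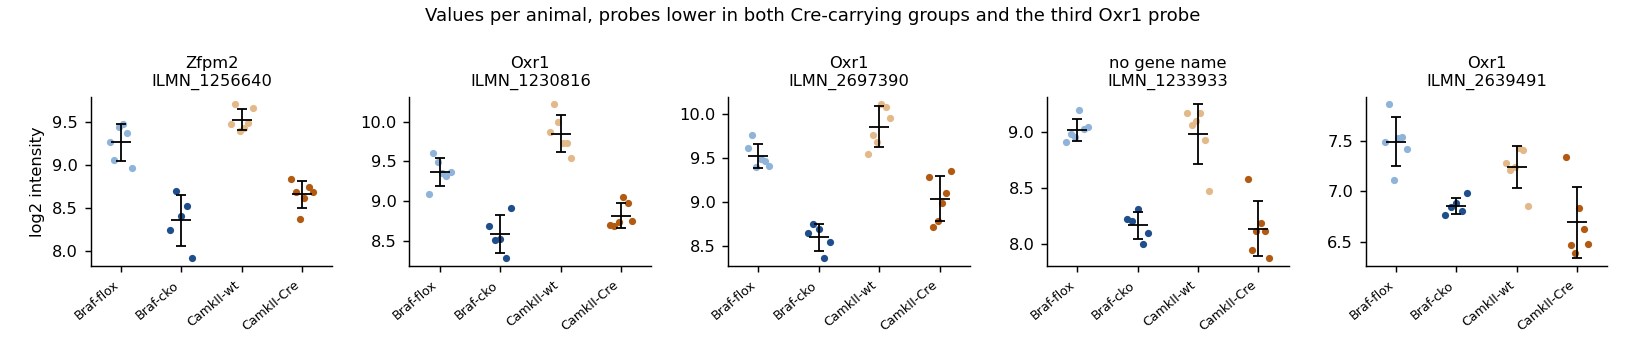
Log2 intensity of each mouse (points) in the 4 groups for the 4 probes called in both Cre-carrying groups and, on the right, for the third Oxr1 probe, with the group mean and SD as black bars and a vertical axis of its own in each panel. In the 4 called panels both Cre-carrying groups lie about 0.8 to 1.0 log2 units below their littermates, and 1 CamkII-wt mouse lies low for ILMN_1233933.

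Oxr1 and Zfpm2 lie on the same mouse chromosome, with 7 annotated genes and none that codes for protein between them in the RefSeq annotation. Of the genes within 20 places of either, 11 were tested, both included. Besides the pair, none was called in Braf-cko or in CamkII-Cre mice, and the Cre changes at the brightest probes of the others ran from -0.10 for Rims2 to 0.11 for Angpt1. The Cre line was made on a background of CBA/J and C57BL/6J before it was crossed back to C57BL/6J, so that effects of Cre, of the insertion and of alleles beside it cannot be told apart.

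Several groups that could have shared a response to Cre showed none that was called in CamkII-Cre mice. Of all 11538 genes at their brightest probe just 2 were called there, so that no call in a short list says little. Among all genes 145 were lower and 64 higher in Braf-cko mice, and 24 were lower and 6 higher for the difference. Of 16 tested genes of the p53 and DNA damage response, none was called for the difference, 1 was lower in Braf-cko mice (Plk3, a stress kinase, -0.43), and the Cre changes ran from -0.22 to 0.11. Of 10 genes of reactive glia none was called in any contrast, with none past an unadjusted p under 0.05 for the difference. None of the 5 tested subunits and inhibitors of CaM kinase II, whose promoter drives the transgene, was called, and Camk2a had changes of -0.10 in Braf-cko and -0.21 in CamkII-Cre mice. Of 17 clock genes 2 were lower in Braf-cko mice, Per2 (-0.76, with a Cre change of -0.04) and Bhlhe40 (-0.40, with 0.02), and the adjusted p of the difference was 0.0936 for both.

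Many changes of Braf-cko mice could not be placed on either side. The strongest estimate among the 287 probes without a shown difference was that of Sstr1, a somatostatin receptor, chosen here after its values were seen. It read 8.11, 7.80, 7.79, 7.21 and 8.24 in Braf-cko mice, while the 6 Braf-flox mice lay at 7.26, 5.66, 7.52, 5.62, 5.48 and 5.67, so that 2 of the controls reached the range of the mutants. In the Cre experiment all 12 mice lay between 5.51 and 5.91. The difference was 1.77 with a standard error of 0.38 and an adjusted p of 0.053. Other genes in this class moved by about 0.5 to 1.1 log2 units in Braf-cko mice with a Cre change near 0. Ubr1, a ubiquitin ligase of the N-degron pathway, had changes of -1.09 and -0.01 (standard error of the difference 0.25, adjusted p = 0.0763), and Bcl6, a transcriptional repressor, of -0.53 and 0.02 (adjusted p = 0.0604). On the higher side, Gpc3, a cell-surface glypican, had changes of 0.62 and -0.04 (adjusted p = 0.0807), Prss12, a secreted protease of synapses, of 0.63 and 0.07 (adjusted p = 0.142), and Slc24a4, a calcium exchanger, of 0.49 and 0.03 (adjusted p = 0.0537). These were chosen after their values were seen.

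Near the threshold, Nfkbie was the last named gene inside it, and Gpnmb (-0.86, adjusted p = 0.0524), a glycoprotein of microglia and melanocytes, and Pla2g4e (-1.43, adjusted p = 0.0524), a phospholipase, were the first outside.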

How the data were processed

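Hippocampal RNA had been hybridized to MouseWG-6 v1.1 BeadChips. The values deposited by the authors are linear intensity values, 1 per probe and array, normalized between arrays, for which their methods name the R packages beadarray, vsn and limma. Versions and settings are not given in the sources used here. A further table holds 72 columns of signals before normalization and their detection values under names that match no sample label, and it was not used. The log2 of each intensity was taken before arrays of 1 mouse were averaged. The 23316 probes with the brighter mean across the 23 mice, 50% of the 46632, were tested. Their number of arrays limits the precision.

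Limma 3.58.1 in R 4.3.3 (statmod 1.5.0) fitted the 4 groups together (lmFit and eBayes, two-sided, 19 residual degrees of freedom), with Benjamini-Hochberg adjustment over the tested probes and a threshold of 0.05. The contrasts were the Braf change, the Cre change, their difference, and the change in both, by the larger p of the first 2. In the platform annotation 29976 probes had 1 symbol, 10 had several and 16646 had none, and 29921 were matched to the RefSeq table by identifier. A gene's brightest tested probe stood for it in lists. Named were Braf, the genes called in both or in the Cre contrast, the 18 lower and 8 higher called genes with the smallest p of the difference (7 higher were called, 1 only at a dimmer probe), and up to 3 members of each list. Other named genes, the called ones beyond these and those near the threshold, were picked once values had been seen. The comparison, the 12 gene lists, the 11 marker lists and the alternatives were chosen with earlier results of these data known. Alternatives were other filters, scalings, technical arrays, estimates of the spread, blocks and leaving out each mouse, and each experiment fitted alone was added after seeing the data.

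The fit was tested on simulated data with 23316 probes. Noise was drawn independently from a normal distribution, with 1 spread per probe shared by the 4 groups. The real experiments differed in spread and in arrays per mouse, so the counts hold for the simulated setting only. For the difference it recovered 57 of 100 probes changed by 0.5 log2 units in the Braf groups only and 91 of 100 changed by 1, called 0 of 100 that changed by 1 in both, and called 3 of 23016 unchanged ones. The test for both recovered 97 of 100.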

Additional observations from a re-analysis of the deposited data

Results flagged for a closer look

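The change differed between the Braf and the Cre experiment at 43 probes, by the test of the difference itself (limma, adjusted over all tested probes). Among neuropeptide genes the log2 difference was -1.187 for Npy, -0.8725 for Sst, -1.217 for Crhbp, -0.6087 for Cck and -0.9258 for Scg5. Among genes of ERK feedback and the early response it was -1.462 and -1.111 at the 2 probes of Dusp6, -0.7588 for Dusp4, -1.212 for Egr1, -1.244 for Egr4, -0.7963 for Etv5, -0.6567 for Csrnp1, -1.004 for Rasd1 and -0.7388 for Midn. Among enzymes and receptors it was -1.508 for Cyp26b1, -1.147 for Htr5b, -0.729 for Tnfrsf12a, -0.7411 for Zranb3, -0.4789 for Plpp6 and -0.9374 for Hectd2. For the other lower genes it was -0.7392 and -0.7094 at the probes of Igfbp4, -0.8498 for Efcab6, -1.052 for Ky, -0.6744 for Stac, -0.5657 for Zyx, -0.4314 for Pramel12, -0.5219 for Dlgap2 and -0.65 for Nfkbie. The genes that were higher had differences of 0.8229 for Rasl10a, 0.5626 for Cygb, 0.5445 for Cdca7l, 0.5727 for Neurod2, 0.9455 for Ctdspl2, 0.4475 for Vstm2b and 0.3737 for N4bp2.

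In 6 of 160 groups of values checked, 1 mouse lay far from the others of its group, where chance gives about 1 group in 20. For Npy, Braf-flox replicate 4 read 10.909 while the other 5 began at 11.105. For Zyx, Braf-flox replicate 1 read 11.583, above the 11.303 of the next mouse. For Scg5, Braf-flox replicate 1 read 11.548 below 12.125, and CamkII-wt replicate 2 read 12.36 above 11.901. For N4bp2, Braf-cko replicate 5 read 8.7702 above 8.5734, and for ILMN_1233933, CamkII-wt replicate 6 read 8.473 below 8.9286.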

How the results depend on the processing

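The count of 43 probes for the difference stayed between 33 and 55 in the 10 alternatives and between 31 (without CamkII-Cre replicate 3) and 60 (without Braf-flox replicate 1) when each mouse was left out. With the replicate number as a replicate block within each experiment it was 39 probes, of which 33 were among the 43. The labels do not say that the numbers pair mice, and the deviations of mice with the same number correlated between -0.133 and 0.116 in the Braf experiment and between -0.24 and 0.587 in the Cre experiment. The block also took 1 probe of Oxr1, ILMN_1230816, out of the calls for both groups (adjusted p = 0.177), which left 3. Of the 43 probes, 29 passed without each mouse in turn and 24 of these also in every alternative that tested them. The 14 others lost the call in at least 1 such fit, with adjusted p up to 0.102. Csrnp1 passed in 22 of 23 (adjusted p = 0.0503 without CamkII-Cre replicate 3), Dlgap2 and Neurod2 in 12, Ctdspl2 and N4bp2 in 10, Vstm2b in 9, Hectd2 in 7 and Nfkbie in 5. Among the alternatives, Nfkbie passed in 4 of 9, Hectd2 in 6 of 9, N4bp2 in 6 of 10, Vstm2b in 7 of 10 and Ctdspl2 in 7 of 9, and Rasd1, Pramel12, Cdca7l, Egr4, Plpp6, Csrnp1, Dlgap2 and Neurod2 lost the call in at least 1. No difference that was called changed sign. The count of 333 for Braf-cko against Braf-flox was 227 to 349 without each mouse, 184 with technical array 2 of the Cre experiment, 205 with the spread estimated for each experiment and 126 with each experiment fitted alone, where 2 probes passed in CamkII-Cre mice and 0 in both (the cause was not tested). The counts of 4 for the Cre contrast and for both were 4 or 5 without each mouse. With no filter a dim unnamed probe, ILMN_1260335, was higher in both (0.59 and 0.52), which made 5. Brightness near background limits what can be said of dim probes, Braf among them.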
